A study of Homo sapiens with 4 samples.

Results

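Interferon-stimulated genes are the genes that cells switch on when an interferon, or foreign nucleic acid, is sensed. A set of 41 such genes was chosen by name from 16504 gene symbols in an RNA-seq table of cells labelled NB4, and the FPKM values (fragment counts divided by exon length and by library size) of the transcripts of each gene were added up. Of the 41 genes, 31 had a row in the table. The other 10 (OAS1, OAS2, OASL, IFIT5, MX1, MX2, HERC5, IFI44, IFI44L and XAF1) had no row and were not analysed here. A mean of 1 FPKM or more over the libraries was reached by 16 genes, and 15 stayed under it. Measured values played no part in the choice of the names, although results of these data were known when they were chosen.

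Interferons signal through paired receptors and the kinases JAK1 and TYK2 to a complex that holds STAT2 and IRF9 and binds the interferon-stimulated response element (ISRE) in promoters. Interferon also acts through a different element, GAS, which stands before genes such as IRF1. The products of the target genes sense, degrade, edit or trap viral RNA and proteins, and OAS, IFIT, MX and RSAD2 are among the targets that a response to type I interferon raises most. Long double-stranded RNA is one trigger, and short hairpin RNAs have been known to set off the same genes in some settings, which is why they are often read as a check in knockdown work.

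The study followed CEBPG, a basic leucine-zipper protein of the C/EBP family that binds DNA with its relatives, and asked which genes it controls in acute myeloid leukemia. Total RNA was sequenced from 4 libraries labelled NB4, a cell line derived from acute promyelocytic leukemia: 2 control libraries (label NC, CEBPG present) and 2 libraries with CEBPG knockdown (label CEBPG3). Per the study methods, hairpins against CEBPG were delivered in the lentiviral vector pLKO.1-puro, cells were selected with puromycin, and knockdown cells were compared with cells carrying a control hairpin. The number in the knockdown label was taken to name 1 of the CEBPG hairpins, an assumption, so both knockdown libraries are taken to share 1 hairpin. Control cells had thus also been infected, selected and given a hairpin, and no uninfected cells entered the comparison. A response that both hairpins raise alike would not show in it, and a response to 1 hairpin sequence cannot be told apart from a response to the loss of CEBPG. Nothing in the labels says whether the libraries of a group came from separate cultures, so the p-values measure the spread between these libraries.

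The targeted gene followed the labels. CEBPG (chr19:33373685-33382686, plus strand, hg38) was at 17.1 and 18.1 FPKM in controls and at 6.91 and 7.96 FPKM after knockdown, a log2 fold change of -1.14 (SE 0.082, limma adjusted p = 0.000836). The cell type label did not match its markers as well. Of 12 promyelocytic and myeloid markers, 4 (CD33, SPI1, FUT4 and LYZ) reached a mean of 1 FPKM, and the 12 summed to 50.8 to 53.7 FPKM. The granule genes AZU1 and PRTN3 stayed under 1 FPKM in every library, while LYZ was at 15.0 to 20.1 FPKM. Of 17 erythroid markers, 14 reached 1 FPKM, and their sum was 8571 and 8097 FPKM in controls against 9566 and 8999 FPKM after knockdown, most of it globin. The cells are therefore called the labelled cells here. Monocyte and dendritic cell markers, from cells known for strong interferon responses, summed to 0.400 to 0.419 FPKM over the 5 of 7 with a row. Lymphoid markers summed to 33.5 and 34.8 FPKM in controls and to 68.1 and 57.4 FPKM after knockdown, almost all of it CD3D, while CD3E and CD2 were at or near 0. Fewer cells of a type and less RNA per cell cannot be told apart in bulk RNA, and the part of these markers in the results was not tested.

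The response elements are shown first, since an ISRE match stands before many, though not all, of these genes. Promoter sequences came from RefSeq (GRCh38.p14), where 32 of the 41 genes had an entry, and the 250 bases before each start site were searched on both strands. The ISRE core, GAAA and GAAA with any 2 bases between them, was found before 20 of the 32 genes (62.5%), against 3.71% of all 27305 genes with an entry and 3.02% of 35116 promoters. The letters of a GAS element, TTCNNNGAA, were found before 9 of the 32 (28.1%), against 8.09% of all genes and 6.57% of promoters. A C/EBP core, TTGCNNAA, was found before 3 of the 32 (ADAR, HERC6 and OAS1, 9.38%), against 11.0% of all genes and 9.05% of promoters. A match is a description of the letters and does not show that a factor binds there.

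Windows around ISRE matches are printed for 4 genes that were higher in the knockdown, BST2 (chr19:17405741-17405770, minus strand), IFI6 (chr1:27672213-27672372, minus strand), PARP14 (chr3:122680679-122680838, plus strand) and PARP9 (chr3:122564322-122564351, minus strand). They are followed by windows around GAS matches of the higher genes IRF1 (chr5:132490778-132490937, minus strand) and IFI35 (chr17:43006752-43006781, plus strand). For contrast, ISRE windows are given of ISG15 (chr1:1013337-1013496, plus strand) and IFITM1 (chr11:313990-314019, plus strand), which were expressed and did not pass the test, and of IFIT1 (chr10:89392386-89392545, plus strand), which was nearly silent. Each is written 5′ to 3′ on the strand of the gene, with the matched letters in capitals. In PARP9 and IFIT1 the match lies on the opposite strand, and the capitals show its reverse complement. The matches of BST2, PARP9, IFI35 and IFITM1 overlap an annotated untranslated region of a gene, and only 30 bases are printed for these genes.
BST2: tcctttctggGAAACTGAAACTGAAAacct
IFI6: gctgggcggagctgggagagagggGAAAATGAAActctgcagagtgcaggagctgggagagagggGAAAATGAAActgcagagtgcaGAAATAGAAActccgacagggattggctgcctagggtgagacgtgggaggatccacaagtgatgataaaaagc
PARP14: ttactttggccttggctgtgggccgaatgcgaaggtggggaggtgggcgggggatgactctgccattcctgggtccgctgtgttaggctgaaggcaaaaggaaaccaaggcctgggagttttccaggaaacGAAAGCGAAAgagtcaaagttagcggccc
PARP9: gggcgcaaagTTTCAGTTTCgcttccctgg
IRF1: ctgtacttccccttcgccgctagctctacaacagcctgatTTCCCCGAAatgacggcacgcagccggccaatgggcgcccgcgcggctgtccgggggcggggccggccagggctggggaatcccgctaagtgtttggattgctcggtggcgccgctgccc
IFI35: aggcagggatTTCACGGAAatgaaagtgga
ISG15: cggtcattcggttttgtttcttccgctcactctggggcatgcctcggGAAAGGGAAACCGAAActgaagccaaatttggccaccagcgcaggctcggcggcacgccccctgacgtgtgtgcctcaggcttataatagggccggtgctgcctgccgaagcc
IFITM1: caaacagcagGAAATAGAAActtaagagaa
IFIT1: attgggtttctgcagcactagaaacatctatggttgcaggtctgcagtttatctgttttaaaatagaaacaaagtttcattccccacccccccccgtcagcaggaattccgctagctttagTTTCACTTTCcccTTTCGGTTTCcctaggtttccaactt

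Counted from the start site, the nearest ISRE match began at base -124 in BST2, -93 in IFI6, -29 in PARP14 and -41 in PARP9. BST2 and ISG15 each held 2 overlapping matches and IFI6 held 3 separate ones. Sorted by outcome, an ISRE stood before 4 of the 7 higher genes with a promoter entry, 3 of the 7 tested genes that did not pass, 8 of the 11 genes under 1 FPKM and 5 of the 7 genes with no row. The element was thus found before silent as well as expressed genes of the set.

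Over all genes, 10968 reached a mean of 1 FPKM and were tested with limma on log2(FPKM + 1), a scale that understates the change of low genes. An adjusted p under 0.05 was reached by 20.9% of them, 10.9% higher and 9.99% lower in the knockdown. Of the 16 tested interferon-stimulated genes, 9 were higher and 0 lower, and at an unadjusted p under 0.05, which 37% of all tested genes reached, 19.6% as higher and 17.4% as lower, the counts were 12 and 0. The 9 were IFI6, IFITM2, USP18, IRF1, BST2, PARP14, IFI35, PARP9 and TRIM25. The median log2 fold change of the 16 was 0.37, against 0.015 over all tested genes, and all 16 values were above 0 in the fit of 4 libraries. Both knockdown libraries lay above both control libraries in 14 of the 16 genes, against 34.3% of all tested genes, and the groups overlapped in ADAR and IFITM3. On this scale the largest change was 0.66, none of the 16 passed an absolute log2 fold change of 1 with an unadjusted p under 0.05, and 0.602% of all tested genes did. With a pseudocount of 0.1 the same 9 counted as higher, and 2 low genes passed 1, USP18 at 1.02 and IFI6 at 1.02.

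Each fit without 1 library leaves 1 library in a group, and the count of 9 was not kept in all of them. It was 9 without control 1, 4 without control 2 (IFI6, IFI35, BST2 and IFITM2), 1 without knockdown 1 (IFITM2) and 2 without knockdown 2 (IFITM2 and BST2), while the share of all tested genes called higher was 11.0%, 6.35%, 3.70% and 3.75%. Without control 1 the count held ISG15 in place of PARP9. The median log2 fold change of the 16 genes was 0.33 to 0.45 over the fits without 1 library. USP18 reached the filter through the knockdown libraries, and with the filter set on the control libraries alone, 8 of 15 genes were higher with a median of 0.35. With no filter on low values, where many more genes entered the adjustment and 5.34% of all genes were called, 1 of the 9 stayed called (IFITM2, limma adjusted p = 0.0251).

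**Figure D1:**
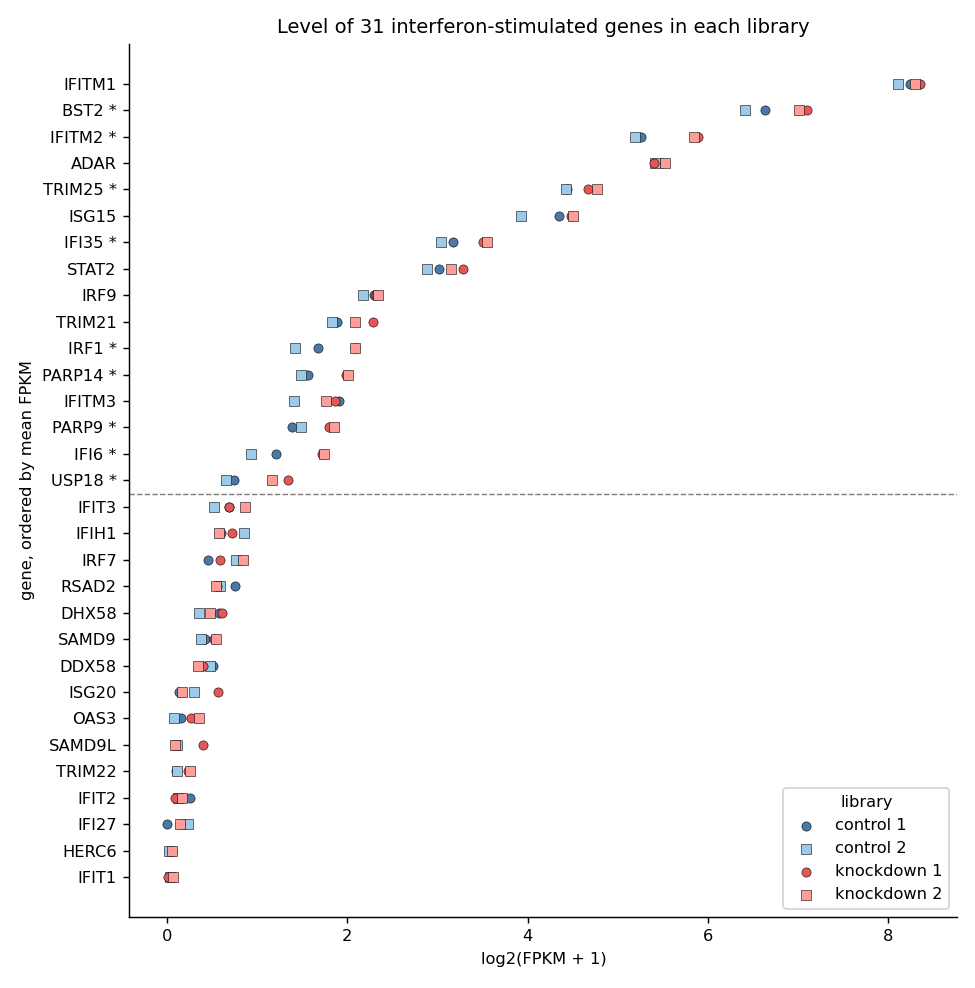
Level of the 31 interferon-stimulated genes with a row, as log2(FPKM + 1) on the x axis, with 1 point per library (blue, control; red, knockdown; circle, replicate 1; square, replicate 2) and genes ordered by mean FPKM. The dashed line marks a mean of 1 FPKM, an asterisk an adjusted p under 0.05 (limma), and the 15 genes under the line range from 0 to 0.826 FPKM.

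Of the 16 tested genes, 3 membrane proteins that block viral entry or release, IFITM1, BST2 and IFITM2, had the highest mean levels over the 4 libraries, although ADAR was above IFITM2 in both control libraries. The IFITM proteins sit in cell and endosome membranes and hinder fusion of incoming virus, and BST2 (tetherin) holds budding virus at the cell surface. IFITM1 was at 302 and 276 FPKM in controls and at 326 and 313 FPKM after knockdown. It lay in the top 1.27% of tested genes by level, and although its groups did not overlap, its log2 fold change of 0.14 (SE 0.067) did not pass the test (limma adjusted p = 0.171). With columns scaled to one sum it passed (limma adjusted p = 0.0470). BST2 was at 98.1 and 84.5 FPKM in controls and at 136 and 128 FPKM after knockdown. Both knockdown libraries were clearly higher, with means of 91.3 ± 9.67 and 132 ± 5.21 FPKM (SD, n = 2), and the log2 fold change was 0.53 (SE 0.082, limma adjusted p = 0.00726).

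IFITM2 was the steadiest of the higher genes. It was at 37.4 and 35.4 FPKM in controls and at 58.2 and 56.6 FPKM after knockdown, or 36.4 ± 1.39 and 57.4 ± 1.10 FPKM (SD, n = 2). Its log2 fold change of 0.64 (SE 0.059, limma adjusted p = 0.00158) was 1.58-fold on the FPKM scale. It was called in each of the 12 alternative gene-level fits, with an adjusted p between 1.97e-05 and 0.0251 (limma). IFITM3 was low and scattered, at 2.76 and 1.65 FPKM in controls and at 2.63 and 2.40 FPKM after knockdown. Its log2 fold change was 0.16 (limma adjusted p = 0.539), and it was -0.097 without control 2.

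The 3 IFITM genes lie within 25.8 kb on chromosome 11 (chr11:303655-329475, hg38) and have similar coding sequences, so the division of reads among them is uncertain. Over aligned coding bases, IFITM2 and IFITM3 were 93.9% identical, IFITM1 and IFITM3 87.5%, and IFITM1 and IFITM2 85.4%. The longest run without a difference was 141 bases between IFITM1 and IFITM3 and 99 bases in the other 2 pairs. A stretch of 120 coding bases of the reference (hg38, GENCODE) shows how little separates IFITM2 (coding bases 206 to 325) from IFITM3 (coding bases 209 to 328), with the single difference in capitals. A read that falls inside this stretch without the marked base fits both genes.
IFITM2: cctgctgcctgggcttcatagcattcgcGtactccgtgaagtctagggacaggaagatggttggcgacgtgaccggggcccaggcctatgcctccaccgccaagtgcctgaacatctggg
IFITM3: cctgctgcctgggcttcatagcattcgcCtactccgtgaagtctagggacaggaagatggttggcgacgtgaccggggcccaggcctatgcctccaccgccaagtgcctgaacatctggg

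**Figure D2:**
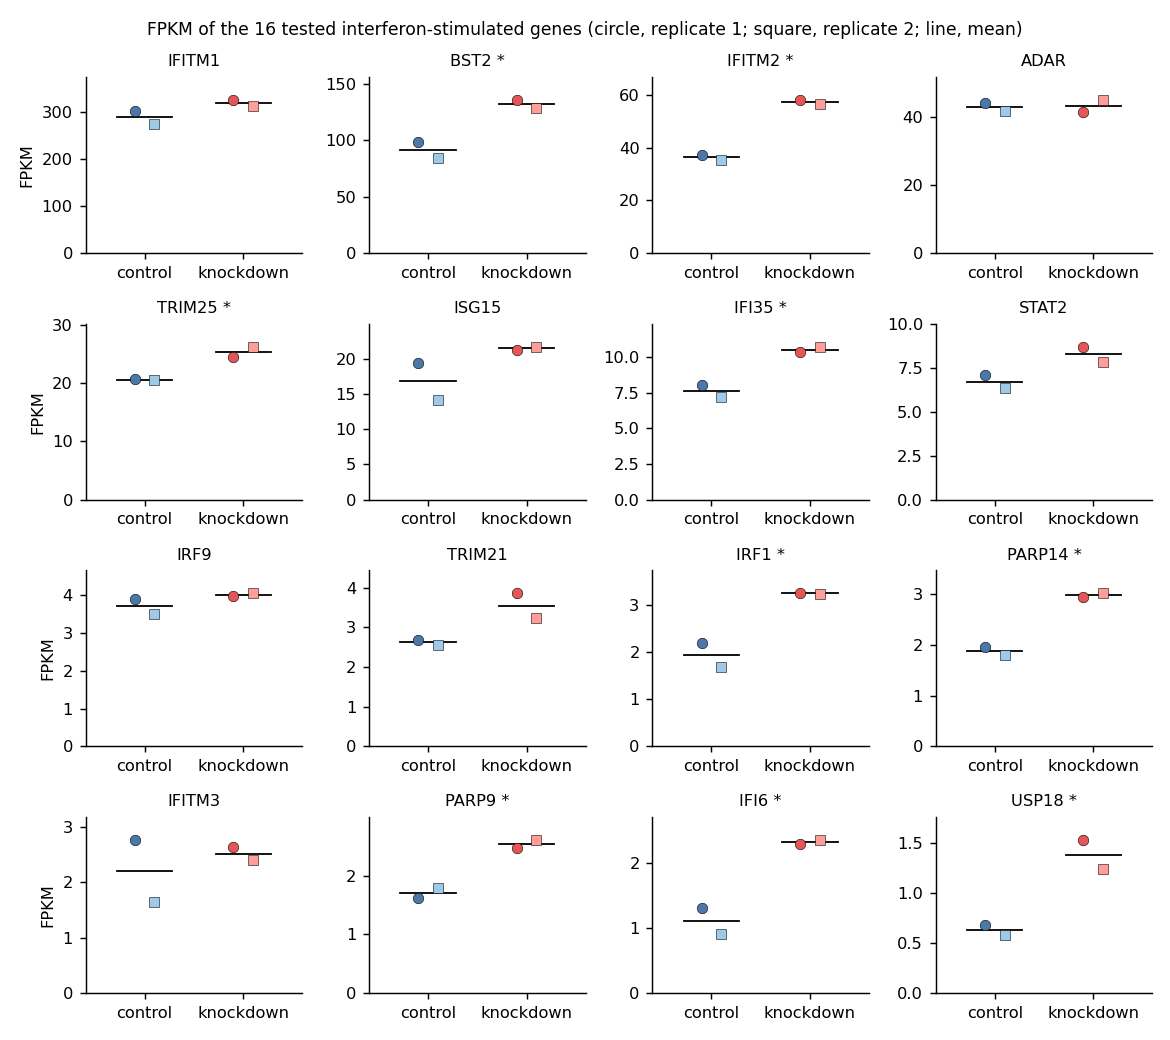
FPKM of each of the 16 tested interferon-stimulated genes in the 2 control (blue) and 2 knockdown (red) libraries, on y axes that start at 0, with the group mean as a line and an asterisk for an adjusted p under 0.05 (limma). The groups are apart in 14 panels and overlap in those of ADAR and IFITM3.

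Of the transcription factors, IRF1 was higher, and STAT2 and IRF9, parts of the ISRE-binding complex, did not pass the test. IRF1 (chr5:132440440-132508719, minus strand), a factor that itself raises many interferon-stimulated genes, was at 2.19 and 1.69 FPKM in controls and at 3.25 FPKM in both knockdown libraries. The control libraries differed more from each other than the knockdown libraries did, and the log2 fold change was 0.54 (SE 0.113, limma adjusted p = 0.0196). STAT2 was the most abundant of these factors, at 7.11 and 6.36 FPKM in controls and at 8.73 and 7.85 FPKM after knockdown. Its groups did not overlap, with a log2 fold change of 0.27 (SE 0.086) and an adjusted p of 0.0703 (limma). The larger of its 2 transcript rows had a log2 fold change of -0.026 and the smaller one of 0.73. Neither row passed (limma adjusted p = 0.953 and 0.290), and the gene value rests on how reads were divided between them. IRF9 had a log2 fold change of 0.094 (limma adjusted p = 0.470). IRF7, which amplifies type I interferon production, stayed between 0.365 and 0.797 FPKM with overlapping groups.

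ISG15 is a ubiquitin-like protein that is attached to other proteins, and USP18 removes it and dampens the type I receptor. ISG15 was at 19.4 and 14.2 FPKM in controls and at 21.3 and 21.7 FPKM after knockdown. The spread of its control libraries was large, at 16.8 ± 3.68 FPKM (SD, n = 2), and the log2 fold change of 0.35 (SE 0.129) did not pass (limma adjusted p = 0.0970). It ranged from 0.14 without control 2 to 0.57 without control 1, where it passed (limma adjusted p = 0.00569). USP18 was at 0.677 and 0.580 FPKM in controls and at 1.53 and 1.24 FPKM after knockdown. Its knockdown mean was 2.20 times the control mean, with a log2 fold change of 0.55 (SE 0.128, limma adjusted p = 0.0273), but its level was the lowest of the 16 genes and it shares near-identical sequence with USP41, so its value is uncertain.

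TRIM25, a ligase that acts on ISG15 targets and on the RNA sensor RIG-I, was at 20.7 and 20.5 FPKM in controls and at 24.4 and 26.2 FPKM after knockdown. Its change was small and its control libraries nearly equal, with a log2 fold change of 0.29 (SE 0.064, limma adjusted p = 0.0233). HERC6 stayed under 0.05 FPKM. Of the other TRIM ligases, TRIM21, a receptor for antibody inside the cell, was at 2.69 and 2.56 FPKM in controls and at 3.86 and 3.24 FPKM after knockdown. Its groups did not overlap, and its log2 fold change of 0.32 did not pass (limma adjusted p = 0.0633). TRIM22 stayed under 0.2 FPKM.

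The neighbours PARP9 and PARP14 were both higher. They encode ADP-ribosyltransferase family proteins that are induced by interferon, and they lie within 202.9 kb of chromosome 3 (chr3:122527924-122730840, hg38) with DTX3L between them. PARP9 was at 1.62 and 1.79 FPKM in controls and at 2.47 and 2.61 FPKM after knockdown, with a log2 fold change of 0.39 (SE 0.0997, limma adjusted p = 0.0364). PARP14 was at 1.95 and 1.81 FPKM in controls and at 2.96 and 3.02 FPKM after knockdown, with a log2 fold change of 0.47 (SE 0.094, limma adjusted p = 0.0169). Both genes rose from under 2 FPKM to between 2 and 4 FPKM, and their groups stood well apart. PARP9 overlaps DTX3L by 240 bases on the opposite strand, and the kit does not mark strand, so reads from that overlap cannot be assigned. DTX3L had a log2 fold change of 0.19 (limma adjusted p = 0.144). PARP9 was not called in any of the 4 fits without 1 library, and PARP14 was called in 1 of them.

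IFI6 and IFI35 were higher as well. IFI6, a small membrane protein that limits virus replication and counters apoptosis, was at 1.31 and 0.910 FPKM in controls and at 2.30 and 2.35 FPKM after knockdown. Its knockdown mean was 2.09 times the control mean, and its log2 fold change of 0.66 (SE 0.126, limma adjusted p = 0.0148) was the largest of the 16 genes on the log2(FPKM + 1) scale, while USP18 had the larger ratio of mean FPKM. IFI35, a leucine-zipper protein, was at 8.03 and 7.20 FPKM in controls and at 10.3 and 10.7 FPKM after knockdown. Its groups were apart, with a log2 fold change of 0.42 (SE 0.077, limma adjusted p = 0.0128). IFI27, which is often used as a marker of interferon exposure, was at 0 and 0.175 FPKM in controls and at 0.102 and 0.109 FPKM after knockdown.

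**Figure D3:**
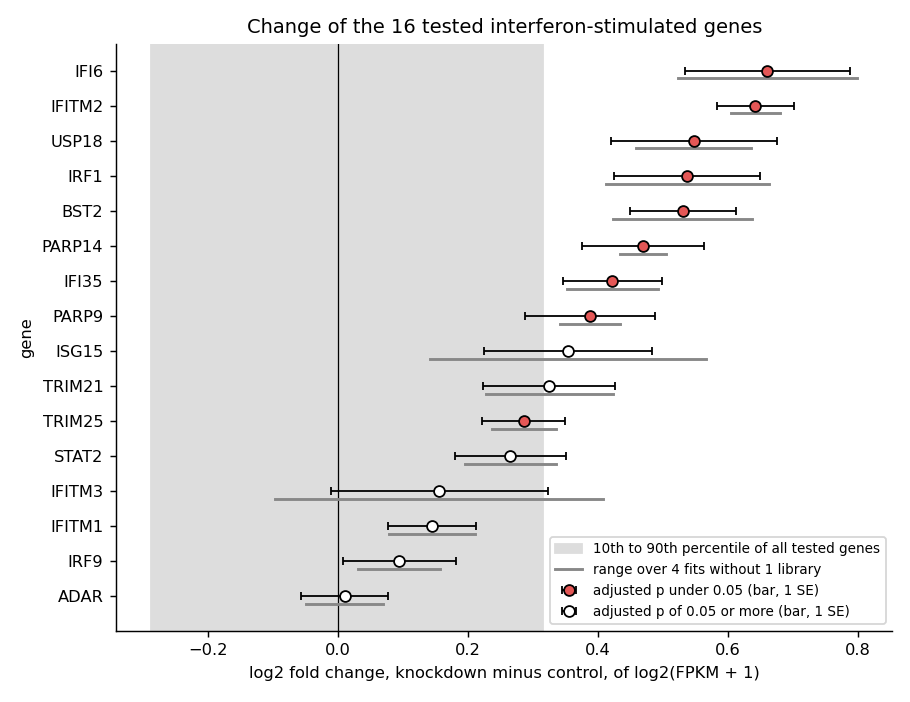
Log2 fold change (knockdown minus control, of log2(FPKM + 1)) of the 16 tested interferon-stimulated genes with bars of 1 SE, red where the adjusted p was under 0.05 (limma), and grey lines for the range over the 4 fits that leave out 1 library. The shaded band holds the 10th to 90th percentile of all tested genes, from -0.29 to 0.32, and the ranges of ADAR and IFITM3 cross 0.

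The classical antiviral effectors that could be measured were nearly silent in both groups. Of the 14 genes of the OAS, IFIT and MX families, the SAMD9 pair, RSAD2 and ISG20, 8 had a row, with no MX gene and 1 OAS gene among them, and none of the 8 reached a mean of 1 FPKM. IFIT3, which with its relatives binds viral RNA ends, had the highest mean of those under the filter, at 0.612 and 0.430 FPKM in controls and at 0.616 and 0.826 FPKM after knockdown. IFIT1, the cap-binding member, was at 0.0206 and 0.0219 FPKM in controls and at 0.00873 and 0.0507 FPKM after knockdown. Even the highest of these values stayed far under the levels of IFITM1 or BST2.

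OAS3, which makes an oligoadenylate messenger when it meets double-stranded RNA, was at 0.113 and 0.0555 FPKM in controls and at 0.204 and 0.279 FPKM after knockdown. SAMD9, a restriction factor of poxviruses, was at 0.341 and 0.294 FPKM in controls and at 0.437 and 0.461 FPKM after knockdown. RSAD2 (viperin) ran the other way, at 0.682 and 0.508 FPKM in controls and at 0.469 and 0.459 FPKM after knockdown. The cytoplasmic RNA sensors DDX58 (RIG-I), IFIH1 (MDA5) and DHX58 (LGP2) were also under the filter. DDX58 was at 0.425 and 0.396 FPKM in controls and at 0.315 and 0.267 FPKM after knockdown, and the groups of the other 2 sensors overlapped.

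Taken over the 15 genes under the filter, the knockdown libraries lay above the control libraries in 5, below in 2 and overlapped in 8. Of all genes under the filter, 22.9% lay above and 18.2% below. In the fit with no filter, 0 of the 15 were called (limma), 3 had an unadjusted p under 0.05 (26.9% of all genes did), and the log2 fold changes of the 15 ran from -0.13 to 0.20 with a median of 0.079. Read depth was unknown, so no counting error could be attached to such low values, and a change in them may not have been detectable.

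ADAR, the enzyme that turns adenosine into inosine in double-stranded RNA, was close in both groups at the gene level. It was at 43.99 and 41.6 FPKM in controls and at 41.3 and 44.9 FPKM after knockdown, and the groups overlapped (log2 fold change 0.010, limma adjusted p = 0.928). The sign was below 0 under both other scalings of the columns. ADAR makes a long form, p150, from a promoter that interferon activates, and a shorter form, p110, from promoters that are always on. Its 5 transcript rows were added up by form, which was chosen after their values were seen.

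The rows of the p150 form were at 20.2 and 18.4 FPKM in controls and at 10.8 and 11.4 FPKM after knockdown. The rows of the p110 form were at 23.8 and 23.2 FPKM in controls and at 30.6 and 33.6 FPKM after knockdown. The forms thus moved in opposite directions, and p150 made up 45.9% and 44.3% of the gene in controls and 26.04% and 25.3% after knockdown. The log2 fold change was -0.75 (SE 0.072, limma adjusted p = 0.00171) for p150 and 0.43 (SE 0.068, limma adjusted p = 0.00773) for p110. Without each library in turn, p150 ranged from -0.81 to -0.69 and stayed called, and p110 ranged from 0.37 to 0.50 and was not called without knockdown 2 (limma adjusted p = 0.0550). In a test of single transcripts, where 0.158% of 15795 were called, none of the 18 tested rows of interferon-stimulated genes passed (limma), although 11 had an unadjusted p under 0.05, which 20.3% of all tested transcripts reached. The forms share most of their exons, and the values rest on how the authors divided shared reads between transcripts.

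**Figure D4:**
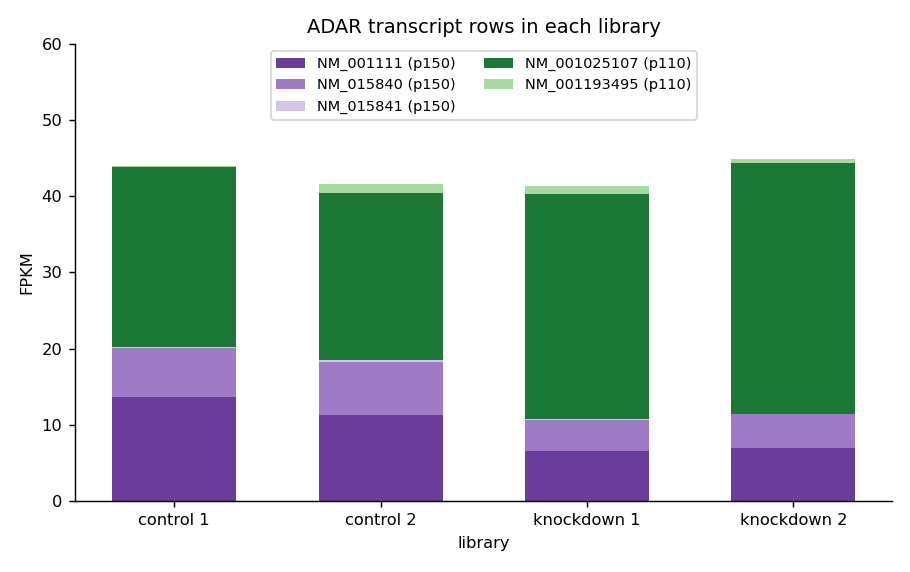
FPKM of the 5 ADAR transcript rows, stacked for each library on an axis that starts at 0, with the rows of the long form p150 in purple and those of the short form p110 in green. The total is 41.3 to 44.9 FPKM in all 4 libraries, while the purple part is 20.2 and 18.4 FPKM in controls and 10.8 and 11.4 FPKM after knockdown.

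The pathway around these genes was described with 7 lists written by function, 128 genes in all. Of these, 67 were tested, and 12 were higher and 3 lower, against 10.9% and 9.99% of all tested genes. The share called in either direction was close to the 20.9% of all tested genes. The median log2 fold change of the 67 was 0.10. Of the 15 called genes, 5 (SOCS1, SOCS3, TRIM14, PSME1 and IL6) were called in all 4 fits without 1 library, 3 (TAPBP, ERAP1 and ICAM1) in none of them and the other 7 in 1 to 3 of them. With no filter, 4 of the 15 were called. None of 21 interferon genes, IFNB1 included, had a row, so production of interferon was not analysed here. Of 12 tested receptors and proximal signalling genes, 1 was higher and 1 lower, against 10.9% and 9.99% of all tested genes. Both of them are feedback inhibitors of JAK kinases. SOCS1 was at 7.62 and 4.95 FPKM in controls and at 14.2 and 13.9 FPKM after knockdown (log2 fold change 1.07, limma adjusted p = 0.00638). SOCS3 was at 7.87 and 6.31 FPKM in controls and at 3.45 and 3.003 FPKM after knockdown (log2 fold change -0.93, limma adjusted p = 0.0037).

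The receptor chains had log2 fold changes of -0.0017 (IFNAR1), 0.12 (IFNAR2), -0.28 (IFNGR1) and 0.17 (IFNGR2), and the kinases of 0.18 (JAK1) and 0.082 (TYK2). None of these 6 passed, and IFNGR1 came nearest (limma adjusted p = 0.0648). IFNGR1 was called lower with a filter at 5 FPKM and under both other scalings of the columns (limma adjusted p = 0.0392 to 0.0483).

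Of 11 tested genes of RNA and DNA sensing, 0 were higher and 1 was lower, with 2 and 1 at an unadjusted p under 0.05, against 10.9% and 9.99% of all tested genes, and 19.6% and 17.4% unadjusted. The lower one was STING1 (listed as TMEM173), the adaptor of DNA sensing, at 22.5 and 21.4 FPKM in controls and at 17.1 and 18.0 FPKM after knockdown (log2 fold change -0.31, limma adjusted p = 0.0190). MAVS, the adaptor of the RNA sensors, had a log2 fold change of -0.013, and IRF3, which it activates, of 0.099. EIF2AK2 (PKR), which binds double-stranded RNA, had a log2 fold change of 0.21 (limma adjusted p = 0.121). TLR3, the endosomal receptor for double-stranded RNA, had no row. Among genes that process hairpins into small interfering RNA, 1 of 10 was higher and 0 were lower, against 10.9% and 9.99% of all tested genes. At an unadjusted p under 0.05, 1 was higher and 2 were lower, against 19.6% and 17.4%. The higher one was PRKRA (PACT), a partner of both Dicer and PKR. PRKRA was at 38.8 and 36.9 FPKM in controls and at 49.7 and 51.0 FPKM after knockdown (log2 fold change 0.40, limma adjusted p = 0.00612).

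Of 19 further interferon-stimulated genes that were tested, 4 were higher and 0 lower, against 10.9% and 9.99% of all tested genes. At an unadjusted p under 0.05, 4 were higher and 1 was lower, against 19.6% and 17.4% of all tested genes. The median log2 fold change of the 19 was 0.095. The knockdown libraries lay above the control libraries in 7 of the 19, below in 4 and overlapped in 8. The higher ones were IFI16 (0.53), a DNA sensor, TRIM14 (0.52), an adaptor of antiviral signalling, UBE2L6 (0.35), the conjugating enzyme of ISG15, and CMPK2 (0.28), a mitochondrial nucleotide kinase next to RSAD2. The 16 tested genes of the set and these 19 thus had different medians, 0.37 and 0.095, a difference that was not tested. Of 8 tested genes of MHC class I presentation, 4 were higher and 0 lower, against the same 10.9% and 9.99%. At an unadjusted p under 0.05, the counts were 7 and 0, against the same 19.6% and 17.4%. TAP2, among the 8 and the 7, reached the filter through the knockdown libraries, as did RELB of the NF-kB targets, and both are named after their values were seen. B2M, the light chain of every class I molecule, was at 105 and 100.1 FPKM in controls and at 125 and 123 FPKM after knockdown (log2 fold change 0.28, limma adjusted p = 0.0184). PSME1 (0.57), TAPBP (0.34) and ERAP1 (0.25), which act in peptide cutting and loading, were the others.

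NF-kB targets were included because double-stranded RNA and cytokines also act through that factor. Of 7 tested, 2 were higher and 1 was lower, against 10.9% and 9.99% of all tested genes, and the median log2 fold change was 0.14. IL6, a cytokine, was at 0.826 and 1.42 FPKM in controls and at 2.85 and 2.96 FPKM after knockdown (log2 fold change 0.89, limma adjusted p = 0.00918). TNFAIP3, a feedback inhibitor, had a log2 fold change of 0.45 (limma adjusted p = 0.0346), and ICAM1, an adhesion molecule, of -0.32 (limma adjusted p = 0.0432). With a pseudocount of 0.1, IL6 was at 1.34, TNFAIP3 at 0.70 and IFI16 at 0.81, where IFI16 did not pass. CXCL8, a neutrophil chemokine named here after its values were seen, was under the filter, at 0.482 and 0.450 FPKM in controls and at 1.26 and 1.22 FPKM after knockdown, and was called in the fit with no filter (limma adjusted p = 0.0284).

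**Figure D5:**
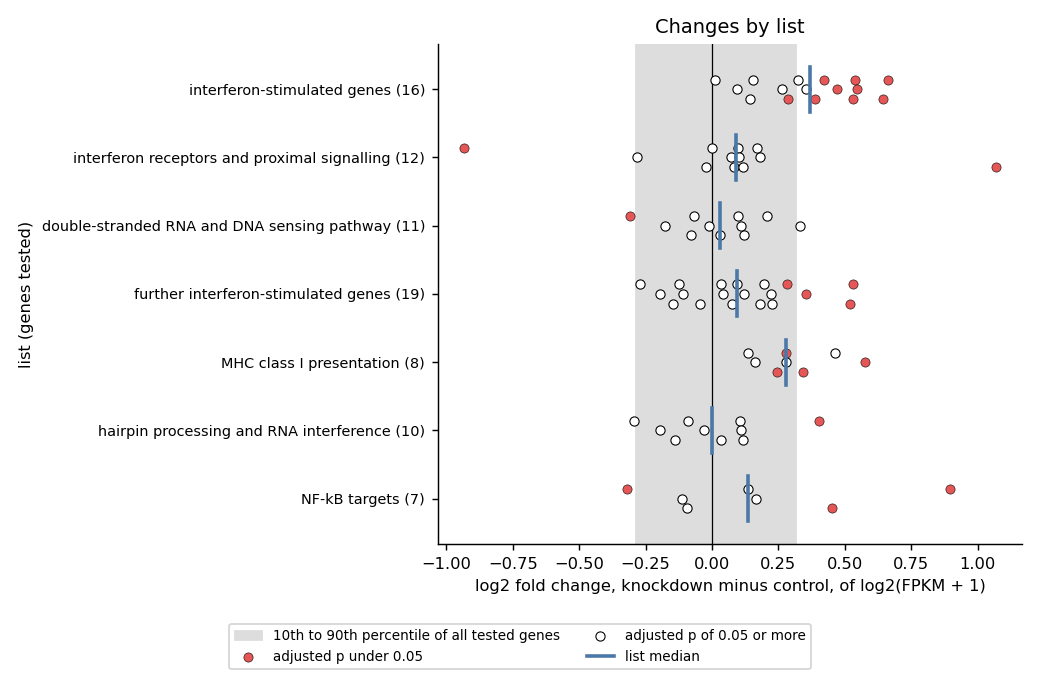
Log2 fold change (knockdown minus control, of log2(FPKM + 1)) of each tested gene in the set of interferon-stimulated genes and in 6 lists around it, red where the adjusted p was under 0.05 (limma), with a blue line for each list median and a band for the 10th to 90th percentile of all tested genes. The median is 0.37 for the 16 genes of the set, 0.28 for MHC class I presentation, and between 0.00059 and 0.14 for the other lists.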

How the data were processed

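RNA-seq libraries were made by the authors from total RNA with a TruSeq kit that does not mark strand. Reads were mapped with HISAT2 2.0.5 to hg38 per the submitters' processing notes. The authors deposited FPKM values of 29265 RefSeq transcripts in 4 libraries (2 control, 2 knockdown). The quantifier and annotation release are not given in the sources used here. Entries with no value (183) or no gene symbol (164, 0.25% of FPKM) were left out, and 28918 transcripts were summed to 16504 symbols. The columns summed to 346170 to 367105 FPKM. Depth is unknown: among 1780 low single-transcript genes the commonest ratio between controls covered 1.29%, too few to recover whole reads, and no counting interval is given.

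Genes that averaged 1 FPKM or more were compared in limma 3.58.1 (R 4.3.3) on log2(FPKM + 1), by a linear model with empirical Bayes moderation and a mean trend, 2-sided, with Benjamini-Hochberg adjustment over all tested genes and a threshold of 0.05. The study used DESeq2 on counts, which FPKM values do not allow. The scripts were tested on simulated data. Values in every library are given for members past the threshold and for the member with the highest mean in each role group. Pathway genes with values were a fixed set of receptors, kinases and sensors and, per list, up to 5 called genes with the largest change. Some genes of that set are not reported here. Transcripts were to be named where 2 rows with 20% of a gene or more moved oppositely by over 0.5 (log2). None of the 8 members with several rows met this, and the rows of ADAR and STAT2 were singled out after their values were seen. The members and lists were chosen with earlier results of these data known. Alternatives were a pseudocount of 0.1, no filter, a filter at 5 FPKM, the replicate number as a block, scaling by median ratio or to equal column sums, no trend, single transcripts, and each library left out. Chosen after seeing the data were ADAR by form and a filter on the control libraries alone. Promoters came from RefSeq (GRCh38.p14), and gene positions from GENCODE on hg38.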

Additional observations from a re-analysis of the deposited data

How the results depend on the processing

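FPKM values carry no depth, 2 libraries a group give few degrees of freedom, and near-identical genes and shared exons make IFITM, USP18 and ADAR form values depend on how reads were divided. Without the filter, 882 of all genes, 1 interferon-stimulated gene (higher) and 5 pathway genes were called, and the median log2 fold change of the set was 0.15 over 31 genes, since the 15 low ones were added. The fold changes of the 16 themselves do not depend on the filter. With a filter at 5 FPKM, 4 of 8 tested genes of the set were called, all higher, while 14.7% of all 7609 genes were called higher. With single transcripts, 25 rows and 0 genes of the set were called, and CEBPG stood at -1.15 with an adjusted p of 0.0587 (limma). Leaving out each library gave 825 to 1925 called genes, 1 to 9 genes of the set, all higher, 6 to 11 pathway genes and a set median of 0.33 to 0.45. In each of these fits 0 genes of the set were called lower. Same-numbered libraries share a number and nothing that pairs them (correlation of deviations 0.101); with the replicate number as a block, 3440 genes and 13 of the set were called, STAT2, IFITM1, ISG15 and TRIM21 in addition, and IFNGR1 was called lower. ADAR turned to -0.0040 with median-ratio scaling, -0.012 with columns scaled to one sum, and -0.75 for its p150 rows. Leaving out 1 library, log2 fold changes ran from -0.049 to 0.070 for ADAR, from -0.097 to 0.41 for IFITM3, from -0.016 to 0.18 for TYK2, from -0.045 to 0.041 for IFNAR1 and from -0.040 to 0.014 for MAVS. Median-ratio scaling moved the median of all genes from 0.015 to 0.0027 and left 9 genes of the set called, and columns scaled to one sum called 10, with IFITM1 in addition. The share of called genes that were higher, 52.1%, was 62.7% without control 1 and 43.2% without control 2. Of the other values of single genes, 396 kept direction and side of the threshold, 75 kept direction and lost the call, and 11 kept direction and gained it. The cause was not tested.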
